A study of Homo sapiens with 12 samples.

Results

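The 10 genes described here encode cytosolic sensors of RNA, antiviral effectors that act on RNA, and transcription factors of the interferon response. They are RIGI (listed in the platform annotation under the older symbol DDX58), IFIH1, DHX58, DDX60, EIF2AK2, OAS1, OAS2, OAS3, IRF7 and IRF9. They were listed by name, with earlier results of these data known, and matched to array probes through the platform annotation, so no count of them is free of that choice. They are 10 of the 12155 genes that the annotation names, and 16 of the 47318 probes of the array belong to them. All 16 probes passed the filter on dim probes, which 18152 probes passed in all. In HEK001 cells with the NCSTN hairpin, 9 of the 10 genes were called higher than in control cells by at least 1 probe, where 7.95% of the 11075 named genes with a kept probe were. Of the 9, RIGI and DHX58 passed the filter only with the HEK001 knockdown arrays counted, so their place in this count rests on the group where they are high. In HEK293 cells 0 of the 10 genes were called higher, where 12.3% of named genes were, and IFIH1 and IRF9 were lower. OAS1 was also called lower there by a probe that no HEK293 array detected, and 13.3% of named genes were called lower.

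RIGI and IFIH1 (also called MDA5) are helicases that bind viral or other double-stranded RNA in the cytosol and signal through the adaptor MAVS to switch on interferon genes. DHX58 (LGP2) and DDX60 are related helicases, the first known to modulate the signal of the other sensors and the second described as a cofactor of them. EIF2AK2 (PKR) is a kinase that halts translation when it binds double-stranded RNA, and the OAS enzymes answer the same ligand by making short oligoadenylates that act as a second messenger. IRF7 is a transcription factor that amplifies type I interferon production, and IRF9 is the DNA-binding subunit of the complex ISGF3, through which secreted interferon activates its target genes. Most of these genes are themselves known interferon targets, and keratinocytes are known to respond to interferon and to double-stranded RNA.

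The samples were 12 RNA samples from human cell lines, each hybridised to its own Illumina array. The lines were HEK001, immortalised keratinocytes, and HEK293, embryonic kidney cells that carry adenovirus genes. Cells of either line had received lentivirus for a hairpin against NCSTN, the gene of nicastrin, a subunit of the gamma-secretase protease, or for a pLKO hairpin against luciferase as the control, with 3 arrays in each of the 4 groups. All groups, controls included, were thus virus-infected, exposed to polybrene at 10 µg/mL and selected with puromycin for about 2 weeks, at a labelled 2 µg/mL in HEK293 and a labelled 0.5 in HEK001, for which the unit is written incompletely. The knockdown arm rests on a single hairpin, so its effects beyond NCSTN cannot be told apart from those of NCSTN loss, and no label ties a replicate to a culture of its own, so the p-values below reflect no more than the spread among these arrays, which may be technical. The target of the NCSTN hairpin is shown because all knockdown arrays rest on it, and its position in the genome was not analysed here.
NCSTN hairpin target: gctctactgaatactctacat

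The NCSTN probe fell by 3.10 on the log2 scale in HEK001 (SE 0.119, limma adjusted p = 4.79e-08) and by 1.98 in HEK293 (SE 0.119, limma adjusted p = 4.34e-07). The arrays detected between 14818 and 16333 probes each, arrays of 1 group correlated at Pearson's r of 0.989 to 0.994 across the kept probes. Of 8 keratinocyte markers named on the array, 8 were detected on all 3 arrays of both HEK001 groups, 1 (LAMB3) in HEK293 with the NCSTN hairpin and 0 in HEK293 controls. For all 12 samples the source name reads HEK001, whereas titles, cell line entries and these markers separate the lines. A level is given below as log2 of the background-corrected, quantile-normalised signal. The dimmest probes that counted as detected (detection p under 0.01) lay between 5.27 and 5.50 on this scale, depending on the array. The number of arrays limits the precision, and each member probe was read from 9 to 38 beads per array (median 24).

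Promoter sequences were set beside the members because 9 of the 10 genes were called higher in HEK001, with the limit given above for RIGI and DHX58. The RefSeq promoter table (GRCh38.p14, 250 bases before to 50 bases after each gene start) held 7 of the 10 genes and held no entry for DHX58, OAS2 or IRF7. The core of the interferon-stimulated response element, the sequence that ISGF3 and the IRF family bind, was searched as GAAANNGAAA on both strands, which reads TTTCNNTTTC on the other strand. It occurred in the windows of IFIH1, DDX60, EIF2AK2 and OAS3, that is in 4 of 7 members, and in 3.574% of all 35116 promoters. The 4 stretches that hold these matches are shown with 30 bases on either side, matches in capitals, written along the strand of the gene.
IFIH1, chr2:162318666-162318873, minus strand: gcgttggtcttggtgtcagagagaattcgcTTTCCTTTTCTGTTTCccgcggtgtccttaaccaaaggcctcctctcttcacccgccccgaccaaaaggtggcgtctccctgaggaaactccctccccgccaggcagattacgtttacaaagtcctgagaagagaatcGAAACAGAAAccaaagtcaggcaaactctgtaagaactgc
DDX60, chr4:168318766-168318870, minus strand: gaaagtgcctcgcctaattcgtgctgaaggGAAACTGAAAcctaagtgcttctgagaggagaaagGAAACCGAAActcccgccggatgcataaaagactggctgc
EIF2AK2, chr2:37156947-37157016, minus strand: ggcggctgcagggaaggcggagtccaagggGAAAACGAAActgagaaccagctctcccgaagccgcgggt
OAS3, chr12:112938301-112938501, plus strand: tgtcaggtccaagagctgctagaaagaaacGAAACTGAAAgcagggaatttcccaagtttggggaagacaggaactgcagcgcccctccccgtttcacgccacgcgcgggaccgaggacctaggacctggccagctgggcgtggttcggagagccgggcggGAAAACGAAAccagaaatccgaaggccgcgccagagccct
In IFIH1 the antisense pair of matches overlaps, so that it reads as a single run of capitals, and a sense match lies between 21 and 12 bases before the gene start. DDX60 has 2 sense matches and OAS3 has 2, the nearer OAS3 match ending 3 bases before the start. The EIF2AK2 match spans the gene start itself. A second motif, the GAS element, searched as TTCNNNGAA (its own reverse complement), occurred in the windows of DDX60, OAS1 and IRF9, 3 of 7 members, and in 7.657% of all promoters. A match is a string of letters and not a measured binding site, and genes without one may hold other forms of the element.

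In HEK001, 14 of the 16 probes were higher with the NCSTN hairpin at a limma adjusted p under 0.05, 0 were lower and 2 were not called, where 6.34% of all kept probes were called higher. The values of all 16 probes did not overlap between the knockdown and control arrays, all with the knockdown above, which held for 15.8% of all kept probes. The median log2 difference over the 16 probes was 0.85, against -0.01 over all kept probes. Measurable folds ran from 1.18 to 2.46 over 13 probes, and for the other 3 probes (RIGI, DHX58 and OAS2 probe 3) only a lower bound could be given, because the probe was not detected on every control array. The same 3 passed the filter on dim probes only with the HEK001 knockdown arrays counted, so their place among the 16 rests on the group where they are high. Of the 13 probes that passed without those arrays, 11 were called higher. With the authors' own normalised values all 16 probes were still higher, but 8 were called. In bulk RNA, a larger share of cells expressing a gene and more transcript per cell cannot be told apart.

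**Figure D1:**
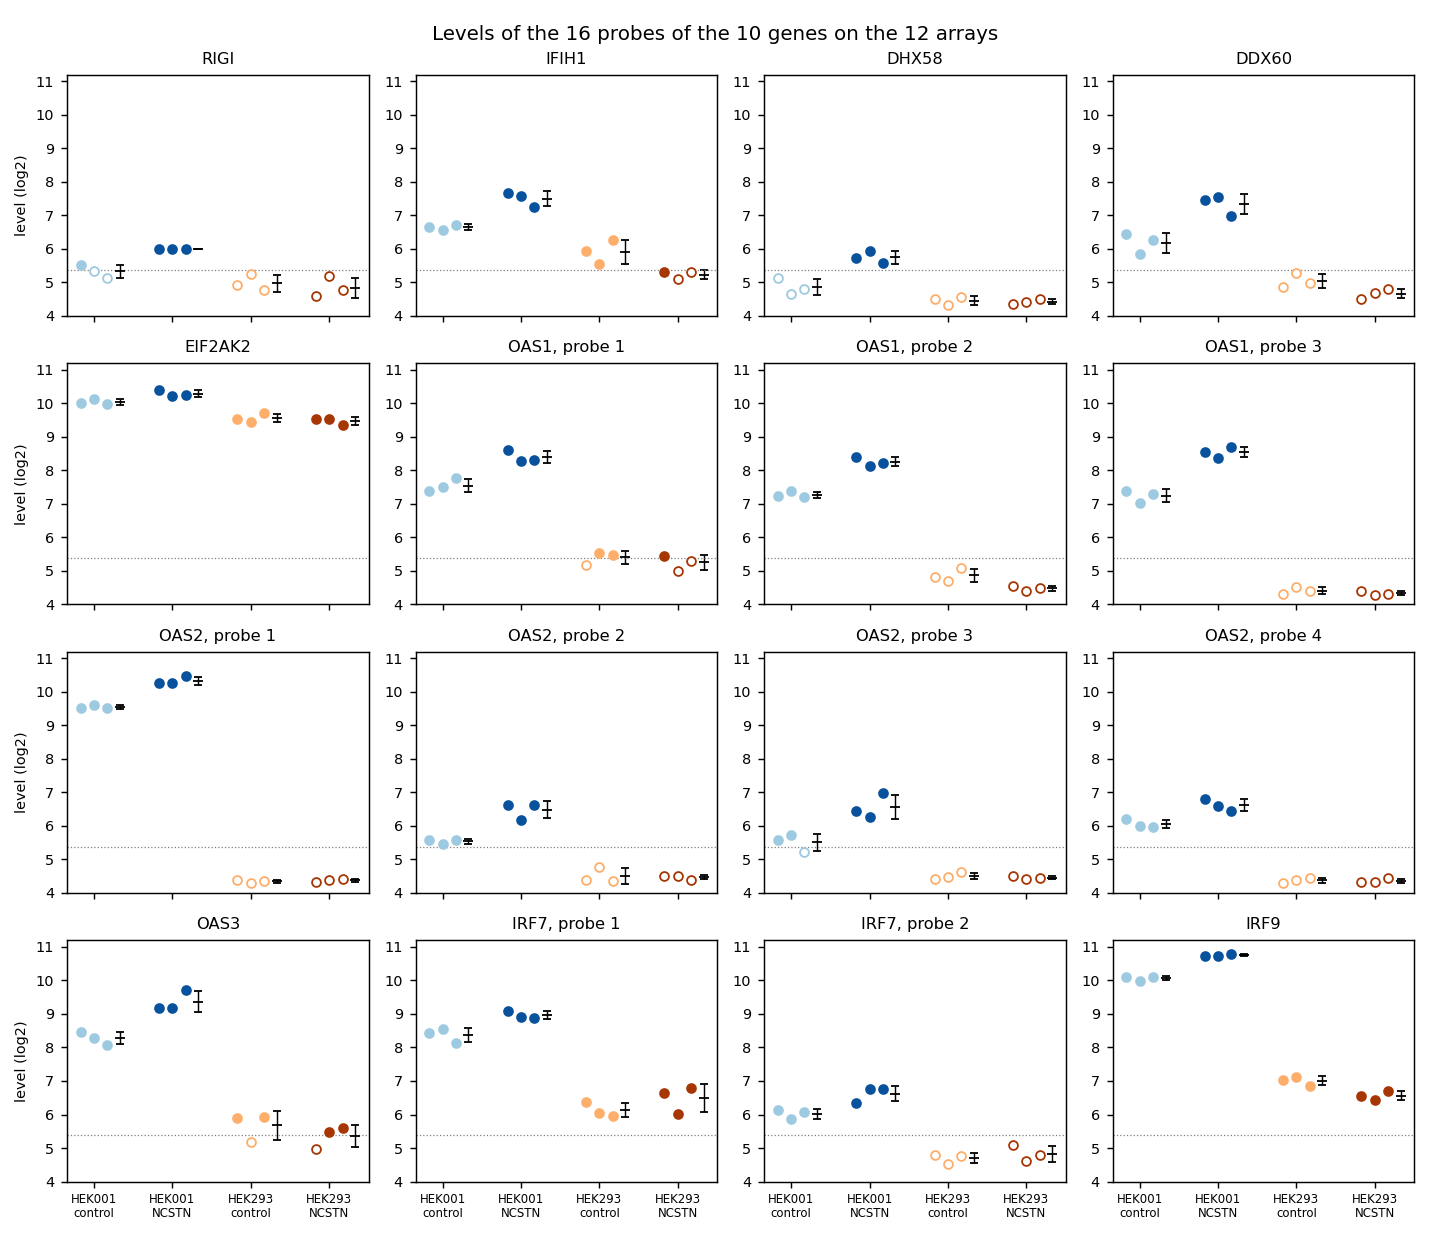
Levels of the 16 probes on the 12 arrays, 1 panel per probe, in log2 units of normalised signal. Each point is 1 array, filled where the probe was detected and open where it was not, with the group mean and SD beside the points, and the dotted line marks the mean of the lowest detected levels. In every panel the 3 HEK001 arrays with the NCSTN hairpin lie above the 3 HEK001 controls, and in 10 panels all 6 HEK293 arrays are open points.

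Among the helicase sensors, IFIH1 was the 1 gene with detected arrays in all 4 groups. Its level (probe ILMN_1781373) was 7.67, 7.57 and 7.25 on the HEK001 knockdown arrays against 6.66, 6.55 and 6.72 on the HEK001 controls. The lowest knockdown array thus lay above the highest control array, and the gene was 1.81-fold higher (log2 difference 0.85, SE 0.166, limma adjusted p = 0.00548). In HEK293 the order was the opposite. The level was 5.30, 5.09 and 5.31 with the NCSTN hairpin, detected on 1 of 3 arrays, against 5.93, 5.55 and 6.27 in controls, detected on all 3. The groups again did not overlap, and IFIH1 was at least 1.47-fold lower with the hairpin (log2 difference -0.69, SE 0.166, limma adjusted p = 0.0111). The 4 groups therefore ran from HEK001 knockdown through HEK001 control and HEK293 control to HEK293 knockdown, and each neighbouring pair differed in the limma fit.

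RIGI (ILMN_1797001) was a dim probe, detected on more HEK001 arrays with the NCSTN hairpin than with the control hairpin. Its level was 5.996, 5.984 and 6.009 on the knockdown arrays, all detected, and 5.51, 5.34 and 5.14 on the controls, of which 1 was detected. The groups did not overlap, and RIGI was at least 1.46-fold higher (limma adjusted p = 0.0187). That call was a narrow one. It was lost without knockdown replicate 1 or 3 or control replicate 2 or 3, with log2 differences of 0.57 to 0.67 (limma adjusted p = 0.0510 to 0.0786), and also with no background correction (limma adjusted p = 0.0706) or with the authors' values (limma adjusted p = 0.0863). In HEK293, RIGI was detected on none of the 6 arrays, where levels ran from 4.59 to 5.26, and no change is stated.

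DHX58 and DDX60 were higher in HEK001 and below detection in HEK293. The DHX58 level (ILMN_1678422) was 5.73, 5.95 and 5.57 with the NCSTN hairpin and 5.13, 4.65 and 4.79 in controls, none of which was detected, so the gene was at least 1.28-fold higher (limma adjusted p = 0.00128). The call was not made with the authors' values (adjusted p = 0.114). The DDX60 level (ILMN_1795181) was 7.47, 7.54 and 6.98 against 6.44, 5.86 and 6.25. All 6 of these arrays detected DDX60, the groups did not overlap, and the 2.22-fold difference was the largest measured fold among the helicases (log2 difference 1.15, SE 0.181, limma adjusted p = 0.00153). In HEK293 the DDX60 levels were 4.52, 4.67 and 4.80 with the hairpin and 4.86, 5.29 and 4.98 in controls. They did not overlap, yet none of the 6 arrays detected the probe. The neighbour of DDX60 on chromosome 4, DDX60L, is a near relative, and cross-hybridisation between their transcripts was not analysed here.

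EIF2AK2, the double-stranded RNA kinase, was detected on all 12 arrays and was the 1 gene with no call in either. Its level (ILMN_1706502) was 10.40, 10.21 and 10.24 on the HEK001 knockdown arrays and 10.00, 10.14 and 9.99 on the controls. The arrays did not overlap, but the 1.18-fold difference did not pass the threshold (log2 difference 0.24, 95% interval 0.01 to 0.47, limma adjusted p = 0.163). In HEK293 the levels were 9.55, 9.53 and 9.35 with the hairpin and 9.54, 9.45 and 9.70 without, which overlap (log2 difference -0.09, 95% interval -0.32 to 0.14, limma adjusted p = 0.610). The upper bound of 0.47 in HEK001 lies below the estimate of each of the other 15 probes. Some of their intervals still overlap that of EIF2AK2 (IRF7 probe 1 from 0.19), and differences between probes were not tested. Its promoter holds the same response element core as those of IFIH1, DDX60 and OAS3.

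The OAS genes, which lie next to each other on chromosome 12 in the order OAS1, OAS3, OAS2, were higher in HEK001 by all of their 8 probes. OAS1 is read by 3 probes, which are not comparable in level with each other. Its probe 1 (ILMN_1658247) was at 8.60, 8.28 and 8.32 with the NCSTN hairpin and 7.37, 7.50 and 7.77 in controls, a 1.80-fold difference (SE 0.152 on the log2 scale, limma adjusted p = 0.00345). Probe 2 (ILMN_1675640) was at 8.41, 8.14 and 8.23 against 7.23, 7.38 and 7.20, or 1.98-fold (limma adjusted p = 2.42e-04). Probe 3 (ILMN_2410826) was at 8.54, 8.38 and 8.70 against 7.40, 7.03 and 7.30, or 2.46-fold (limma adjusted p = 4.11e-05), the highest fold among the 13 probes with one. All OAS1 probes separated the HEK001 groups without overlap. In the annotation, probe 1 belongs to another OAS1 transcript than probes 2 and 3.

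OAS2 is read by 4 probes, all higher in HEK001. Its probe 1 (ILMN_1674063) was at 10.25, 10.26 and 10.46 with the NCSTN hairpin and 9.51, 9.60 and 9.53 in controls. The arrays within each group lay close together relative to the gap, which was 1.72-fold (log2 difference 0.78, SE 0.0912, limma adjusted p = 2.29e-04). For the other 3 OAS2 probes the log2 differences were 0.93 for probe 2 (ILMN_1709333, limma adjusted p = 0.00126), 1.05 for probe 3 (ILMN_1736729, limma adjusted p = 0.0018, detected on 2 of 3 control arrays and so bounded at 1.99-fold or more) and 0.56 for probe 4 (ILMN_2248970, limma adjusted p = 0.00629). With the authors' values, probes 1, 2 and 4 kept differences of 0.77, 0.83 and 0.51 but were not called (adjusted p = 0.0622, 0.0997 and 0.317).

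OAS3 (ILMN_1745397) was at 9.18, 9.19 and 9.72 with the NCSTN hairpin and 8.47, 8.28 and 8.09 in HEK001 controls. The groups did not overlap, and OAS3 was 2.12-fold higher (log2 difference 1.08, SE 0.227, limma adjusted p = 0.00848). In HEK293 it was detected on 2 of 3 arrays of either group, at 4.97, 5.48 and 5.60 with the hairpin and 5.91, 5.17 and 5.93 without, and did not pass the test (limma adjusted p = 0.365). OAS2 was detected on no HEK293 array by any probe. OAS1 was detected by probe 1 on 1 knockdown array and 2 control arrays of HEK293, at levels of 5.01 to 5.55 that overlap between groups. OAS1 probe 2 passed the threshold there in the lower direction (limma adjusted p = 0.0346), but no HEK293 array detected it, so no change is stated, and the pass was lost in 4 alternative settings and in 5 omissions of an array (limma adjusted p up to 0.126). The OAS genes are paralogs, and cross-hybridisation among them was not analysed here.

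Of the transcription factors, IRF9 was the clearer. Its level (ILMN_1745471) was 10.72, 10.74 and 10.79 with the NCSTN hairpin in HEK001 and 10.09, 9.99 and 10.10 in controls. IRF9 was thus 1.61-fold higher without overlap (log2 difference 0.69, SE 0.103, limma adjusted p = 0.00115). In HEK293, where all 6 arrays detected it, IRF9 was at 6.56, 6.43 and 6.69 with the hairpin and 7.02, 7.13 and 6.86 without. It was 1.36-fold lower there, again without overlap (log2 difference -0.45, SE 0.103, limma adjusted p = 0.0087). IRF9 is the 1 member that both lines detected on every array and that was called in both, in opposite directions.

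IRF7 has 2 probes that gave the same difference with different test results. Probe 1 (ILMN_1798181) was at 9.10, 8.92 and 8.88 with the NCSTN hairpin in HEK001 and 8.43, 8.54 and 8.13 in controls (1.52-fold, log2 difference 0.60, SE 0.188, limma adjusted p = 0.0551). Probe 2 (ILMN_2349061) was at 6.36, 6.76 and 6.75 against 6.13, 5.85 and 6.08 (1.52-fold, log2 difference 0.60, SE 0.149, limma adjusted p = 0.0206). Neither probe overlapped between the groups. The call of probe 2 was lost without knockdown replicate 2 or 3 or control replicate 2, with log2 differences of 0.52 to 0.54 (limma adjusted p = 0.0702 to 0.0795), and also with no background correction or with the authors' values (limma adjusted p = 0.103 and 0.0767). Probe 1 passed the threshold with 1 probe per gene, with the arrays of HEK001 alone, and without HEK293 knockdown replicate 2 or 3. In HEK293, probe 1 was at 6.64, 6.02 and 6.80 with the hairpin and 6.37, 6.05 and 5.97 without, which overlap (log2 difference 0.36, limma adjusted p = 0.212), and probe 2 was not detected. Without HEK293 knockdown replicate 2, probe 1 was called higher in HEK293 as well (log2 difference 0.59, limma adjusted p = 0.0253).

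In HEK293 as a whole, 3 of the 16 probes were lower (IFIH1, IRF9 and the undetected OAS1 probe 2), 0 were higher and 13 were not called, where 10.6% of all kept probes were called lower and 9.89% higher. The values of 4 probes (the same 3 and DDX60) did not overlap between groups with the knockdown below, against 17.7% of all kept probes, and 0 did not overlap with the knockdown above, against 18.7%. The median log2 difference of the 16 probes was -0.08, against 0.01 over all kept probes. HEK293 detected 3 of the probes on all 6 arrays (EIF2AK2, IRF7 probe 1 and IRF9), 3 on some (IFIH1, OAS1 probe 1 and OAS3) and 10 on none. For those 10, the arrays show only that any transcript lay under the detection limit in both groups.

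**Figure D2:**
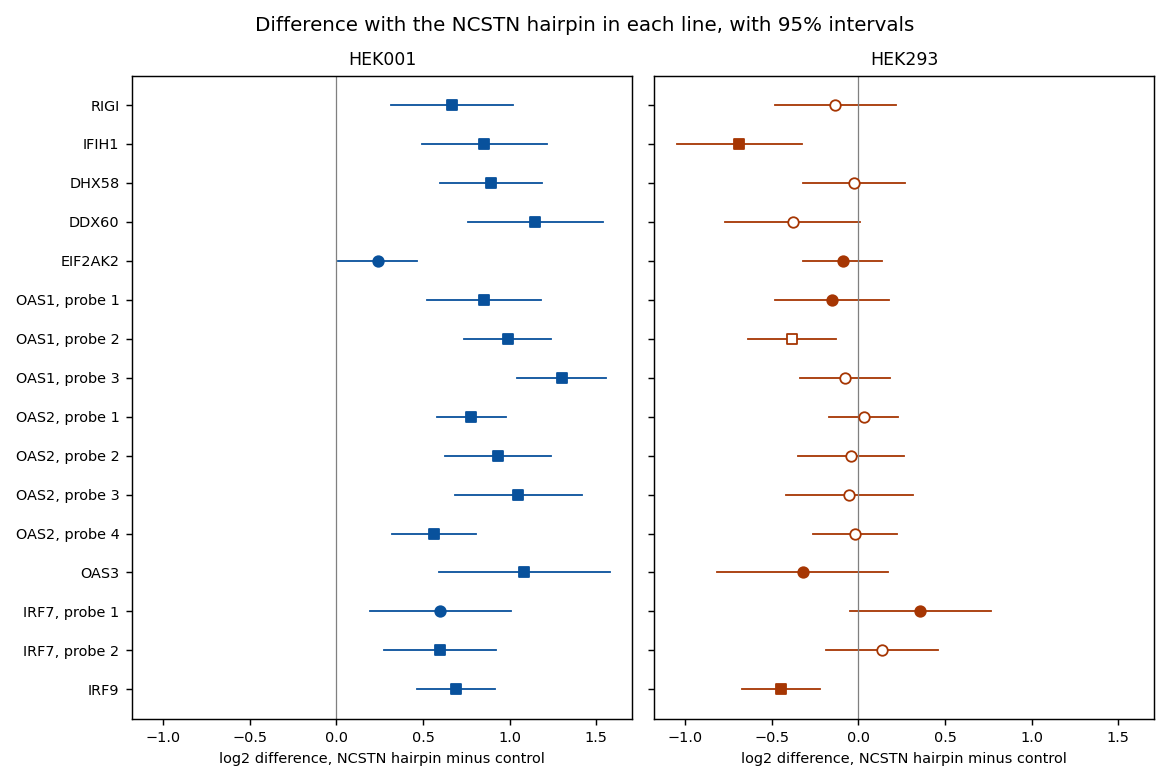
Log2 difference between the NCSTN hairpin and the control hairpin for each of the 16 probes in HEK001 (left) and HEK293 (right), with 95% intervals from limma. Squares were called at an adjusted p under 0.05 and circles were not, and open symbols mark probes that no array of that line detected. All 16 HEK001 estimates lie between 0.24 and 1.30, and the HEK293 estimates lie between -0.69 and 0.36.

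The difference between the lines in the effect of the NCSTN hairpin was tested directly, as an interaction in the same limma fit. It was called for 13 of the 16 probes, all with the effect in HEK293 below that in HEK001, where 10.0% of all kept probes were called in that direction and 19.4% in either. For 9 of the 13, HEK293 detected the probe on no array, so the difference compares a change in HEK001 with values under the detection limit. Those 9 passed the filter on dim probes through HEK001 alone, which tilts this count. RIGI, DHX58 and OAS2 probe 3 among them passed only with the HEK001 knockdown arrays counted. Of the 6 probes that at least 1 HEK293 array detected, 4 were called. These 4, by limma, were IFIH1 (-1.54, SE 0.234, adjusted p = 8.74e-04), IRF9 (-1.14, SE 0.145, adjusted p = 2.96e-04), OAS3 (-1.41, SE 0.321, adjusted p = 0.00965) and OAS1 probe 1 (-1.004, SE 0.216, adjusted p = 0.00681). EIF2AK2 (-0.33, limma adjusted p = 0.144) and IRF7 (-0.24 for probe 1 and -0.46 for probe 2, limma adjusted p = 0.568 and 0.147) did not pass. The RIGI interaction (-0.80, limma adjusted p = 0.0288) was lost in 4 of the other settings and in 8 of the 12 omissions of an array, at values of -0.66 to -0.89 (limma adjusted p = 0.0521 to 0.0886). With the authors' values the interaction was also lost for DHX58 and for OAS2 probes 1, 2 and 4. That of OAS2 probe 4 was lost too with median scaling (limma adjusted p = 0.0884) and without HEK001 knockdown replicate 1 or control replicate 2 or 3, at values of -0.48 to -0.55 (limma adjusted p = 0.0524 to 0.0562).

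The control cells of the lines differed in most of these genes. Of the 16 probes, 15 were lower in HEK293 than in HEK001 control cells and 0 were higher, where 31.2% of all kept probes were called lower, 36.7% higher and 67.9% either way. Of the 16, 10 were detected on no HEK293 array and passed the filter on dim probes through HEK001 alone, which tilts this count. Of the 6 probes that passed on the HEK293 arrays alone, 6 were lower in HEK293 control cells. The values of 15 probes did not overlap with HEK293 below, against 32.7% of all kept probes. IRF9 was 8.32-fold lower in HEK293 (limma adjusted p = 2.18e-11), IRF7 probe 1 was 4.72-fold lower (adjusted p = 2.26e-07) and IFIH1 1.65-fold lower (adjusted p = 0.00165). OAS2 probe 1 was at least 18.4-fold lower, OAS3 at least 5.89-fold and OAS1 at least 3.72-fold to 4.25-fold depending on the probe. The bounds were smaller for OAS2 probes 2, 3 and 4 (at least 1.15-fold, 1.12-fold and 1.63-fold lower) and for IRF7 probe 2 (at least 1.60-fold lower). EIF2AK2 differed least among the genes with a measured fold, at 1.39-fold (limma adjusted p = 0.00124). RIGI was the 1 probe without a call (limma adjusted p = 0.0697), though it passed in 3 omissions of an array. DHX58, though called, was detected in neither control group and has no fold, and its call was lost without HEK001 control replicate 1 (-0.27) or HEK293 control replicate 2 (-0.33) and with median scaling (-0.27). The lines were grown in different media and selected at different puromycin levels, so line and culture cannot be told apart.

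**Figure D3:**
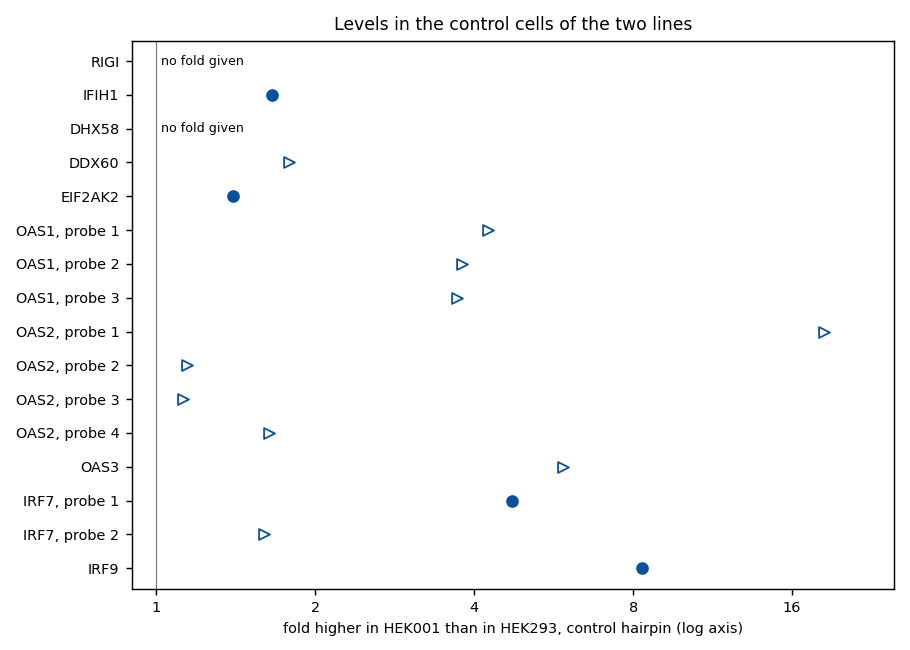
Fold by which each probe was higher in HEK001 than in HEK293 control cells (log axis). Circles are measured folds and open triangles are lower bounds, given where a HEK293 control array did not detect the probe. The circles run from 1.39 for EIF2AK2 to 8.32 for IRF9, and the highest bound is 18.4 for OAS2 probe 1.

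The genes around these 10 in the same pathways were followed through 6 lists with 90 genes in all, of which 56 had a kept and named probe. The brightest probe stood for each gene. In HEK001, 3 of the 56 were higher with the NCSTN hairpin and 2 were lower, against the background of 6.34% higher and 5.99% lower over all kept probes. In HEK293, 7 were higher and 5 lower, against 9.89% and 10.6%.

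Upstream of the members, few genes passed the test in HEK001, where 12.3% of all kept probes passed in either direction. Of the interferon genes themselves, IFNE, an epithelial type I interferon, was at least 1.32-fold lower in HEK001 (limma adjusted p = 0.00176), and IFNK, the keratinocyte type I interferon, had a log2 difference of 0.26 that did not pass (limma adjusted p = 0.176). None of 8 receptor and kinase genes passed in HEK001, where their median log2 difference was 0.09. IFNGR2 at 0.32 and IFNGR1 at 0.30 lay just outside the threshold (limma adjusted p = 0.0589 and 0.0575). IFNAR1 was at 0.18 and TYK2 at 0.08 on the log2 scale. Likewise 0 of 4 other IRF genes and 0 of 17 genes that signal from RNA and DNA sensors passed. Lists this short cannot show whether they differ from the share over all kept probes. MAVS, the adaptor of RIGI and IFIH1, had a log2 difference of -0.26 (limma adjusted p = 0.482), and TBK1, the kinase that phosphorylates IRF3 and IRF7, one of -0.03 (limma adjusted p = 0.924). The DNA sensor IFI16 lay just outside the threshold at 0.42 (limma adjusted p = 0.0511).

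Among partners and inhibitors, ISG15 moved most in HEK001. ISG15, a ubiquitin-like modifier that restrains interferon signalling through USP18, was 2.48-fold higher in HEK001 (limma adjusted p = 4.64e-05) and 1.45-fold lower in HEK293 (limma adjusted p = 0.0081). USP18 was detected on no HEK001 array. TRIM21, an antibody receptor and ubiquitin ligase, was 1.47-fold higher in HEK001 (limma adjusted p = 0.0115, and 0.0502 without control replicate 1). ADAR, which edits double-stranded RNA and so limits its sensing, was 1.54-fold higher there by the brighter of its probes (limma adjusted p = 0.00136). PPP1R15A, a phosphatase subunit that reverses the translation block set by PKR, was 1.35-fold lower in HEK001 (limma adjusted p = 0.0143) and 2.38-fold higher in HEK293 (limma adjusted p = 4.72e-06). The PPP1R15A call in HEK001 was lost without knockdown replicate 3 or control replicate 2 (log2 differences of -0.38 and -0.37). ABCE1, a ribosome recycling factor, was 1.28-fold lower by 1 of its probes (limma adjusted p = 0.0489), a call lost in 6 other settings and in 10 omissions of an array (limma adjusted p up to 0.155), and its other probe was not called. In total, 1 of 13 OAS and PKR partners was higher and 1 lower in HEK001, and 2 of 12 feedback inhibitors were higher and 0 lower. Over all kept probes, 6.34% were called higher there and 5.99% lower.

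The HEK293 changes fell mostly on other genes of these lists. The interferon receptor subunit IFNAR1 was 1.58-fold higher (limma adjusted p = 0.00537), IFNGR1 1.34-fold higher (limma adjusted p = 0.00818) and IFNGR2 1.30-fold lower (limma adjusted p = 0.0194). IFI16 was at least 1.52-fold lower (limma adjusted p = 0.00214), and TRIM25, a ubiquitin ligase of RIGI, 1.25-fold lower (limma adjusted p = 0.0407). These were the only 2 of 17 sensor signalling genes called by their brightest probe, where 20.5% of all kept probes were called either way. Of the kinases that share the substrate of PKR, EIF2AK1 was 1.41-fold lower by its brighter probe (limma adjusted p = 0.00469). DNAJC3, an inhibitor of PKR, was at least 1.45-fold higher (limma adjusted p = 0.00358), and the stress factor DDIT3 was 1.42-fold higher (limma adjusted p = 0.0228). Of the feedback inhibitors, PTPN2 was 1.35-fold higher (limma adjusted p = 0.0267), and SOCS1 was called higher (limma adjusted p = 0.00223) with too little signal for a fold. By a single probe that was not the brightest of its gene, the helicase DHX36 was 1.36-fold lower (limma adjusted p = 0.0385) and the IRF2 corepressor IRF2BP2 was 1.44-fold higher (limma adjusted p = 0.00621).

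The calls of IFNGR2, TRIM25, DDIT3, DHX36 and PTPN2 in HEK293 were fragile. Each was lost in at least 2 omissions of a HEK293 array, with log2 differences from -0.33 to -0.36 for IFNGR2, -0.29 to -0.36 for TRIM25, 0.42 to 0.46 for DDIT3, -0.40 to -0.49 for DHX36 and 0.32 to 0.45 for PTPN2.

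**Figure D4:**
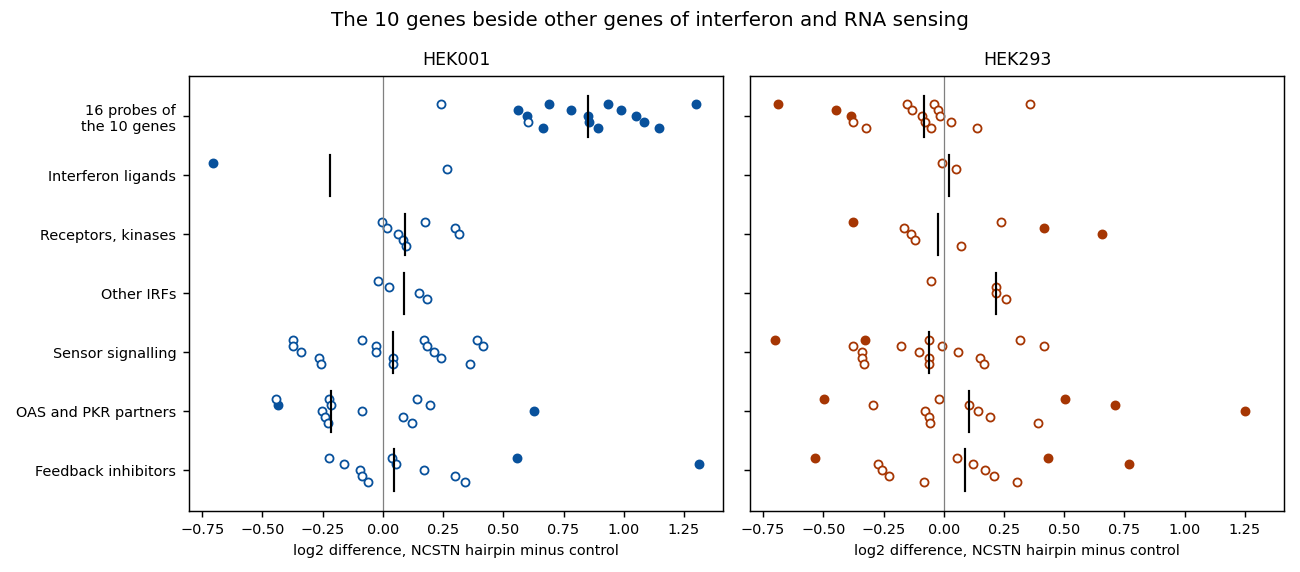
Log2 difference with the NCSTN hairpin in HEK001 (left) and HEK293 (right) for the 16 member probes and for 56 genes of 6 pathway lists, 1 point per probe or gene. Filled points were called at an adjusted p under 0.05, and the black bar is the median of each row. In HEK001 the member row has a median of 0.85, and the list medians lie between -0.22 and 0.09.

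The genes outside the 10 whose profile was most like theirs were named by their correlation with the mean scaled level of the members over the 12 arrays, after each line's mean was subtracted. They were SP110 (Pearson's r 0.986), YPEL5 (0.982), IL33 (0.977), BTBD2 (0.9753) and S100A8 (0.973). These correlations describe a profile in which the arrays of a group share a treatment, and they carry no test. The mean of the members is itself higher on the HEK001 knockdown arrays than on the HEK001 controls. The direction of the HEK001 differences of these genes therefore follows from how they were chosen. In HEK001 the differences were 2.06-fold for SP110, a nuclear body protein, 1.80-fold for YPEL5 and 1.77-fold for BTBD2. S100A8, an antimicrobial calcium-binding protein of keratinocytes and neutrophils, differed by 3.47-fold, and the cytokine IL33 by at least 2.24-fold. IL33 was detected only on the HEK001 knockdown arrays and passed the filter on dim probes through them alone. In HEK293 the log2 differences were -0.25 for SP110, -0.23 for YPEL5 and -0.13 for BTBD2, while S100A8 and IL33 were undetected. Of the members themselves, IRF7 was least like the mean (r 0.595 for its probe 1) and OAS2 most (r 0.931 for its probe 1).

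Markers of cell type moved beside these genes. In HEK001 the summed keratinocyte marker signal ranged from 34977 to 35548 in controls and from 42711 to 46900 with the NCSTN hairpin. By the brightest probe, 5 of 8 markers were higher (KRT15, DSG3, ITGB4, SFN and KRT5), where 6.34% of all kept probes were. The dimmer ITGB4 probe was not called (limma adjusted p = 0.0933). KRT14, LAMB3 and ITGA6 were not called either, at log2 differences of 0.28, 0.09 and 1.7e-04 by the brightest probe. In HEK293 the same sum ranged from 83.1 to 95.6 in controls and from 101 to 135 with the hairpin. Among the kept probes of these markers, HEK293 arrays detected only the brighter LAMB3 probe, with the hairpin. That probe was at least 1.46-fold higher there (limma adjusted p = 3.53e-04), and the rest of the sum lay under the detection limit. The summed signal of 5 leukocyte and dendritic cell markers was 506 to 539 in HEK001 controls and 352 to 416 with the hairpin. Of these, CD74 and HLA-DRA were detected on all HEK001 arrays, IRF8 on none, and LYZ and CD14 on some, while PTPRC and CD3E were not analysed here. The HEK001 log2 differences were -0.37 and -0.57 for the CD74 probes and -0.38 and -0.52 for the HLA-DRA probes. For IRF8, LYZ and CD14 they were 0.18, 0.19 and 0.02, so the sum did not fall through all of its genes. In HEK293 the leukocyte and dendritic cell sum was 309 to 387 in controls and 253 to 281 with the hairpin. Of 2 fibroblast genes and 1 melanocyte gene on the array, none was detected on all 3 arrays of either HEK001 group. The list of 5 HEK293-typical markers did not separate the control cells, since LHX1 and VIM were lower in HEK293 than in HEK001 controls while CDH2, ENO2 and NEFL were higher. It summed to 6840 to 7036 in HEK001 controls and 4948 to 5535 with the hairpin, and to 6939 to 7172 and 19812 to 21949 in HEK293, where VIM was 3.43-fold higher by 1 probe and 3.73-fold by the other. The part of these shifts in the results above was not tested.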

How the data were processed

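Total RNA of 12 samples was labelled and read on Illumina expression arrays, 1 per sample. The authors' deposited scanner table gives, for each of 47318 probes, a linear intensity, a detection p-value and a bead count, as its headers name them. The intensity had been background-subtracted, since 27.1% to 29.1% of values per array lie below 0, and was not normalised between arrays. The authors' second deposited table holds normalised log2 values of 21270 probes, used only as an alternative. GenomeStudio 2010 and R 3.0.2 appear in the submitters' processing notes. A further 12 columns, of bead error, stayed unused.

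Intensities were corrected with limma's neqc (normexp with parameters from the detection p-values, offset 16, quantile normalisation, log2). Probes with a detection p under 0.01 on at least 3 of 12 arrays were kept (18152). A limma model (limma 3.58.1, R 4.3.3) with 4 group means was fitted to all kept probes, with empirical Bayes moderation (8 residual and 12.6 total df). P-values were adjusted by Benjamini-Hochberg across all 18152 probes, and probes were called at an adjusted p under 0.05. Adjusted p-values come from this fit unless another setting or an omitted array is named beside them. Where fewer than 3 arrays of the dimmer group detected a probe, the fold is a lower bound, taken against the higher of its own level and the lowest detected level of each array; where neither group detected it, no fold is given. All probes of the 10 genes were followed one by one, and the text names all of them. From each of the 6 pathway lists, up to 4 genes per line with the lowest adjusted p among called probes were named, then the 5 genes most like the members by correlation. IFNK, TYK2, MAVS, TBK1, USP18, the HEK001 values of IFNAR1, IFNGR1, IFNGR2 and IFI16, and the marker genes were named outside that rule, after their values were seen. The members and lists were chosen with earlier results of these data known, so no count is independent evidence. In the annotation used, 16040 probes have 1 gene, 3 have several and 31275 are unnamed. Promoters are RefSeq's. On simulated arrays for the HEK001 comparison over 18152 probes, 22 of 100 changes of 0.5 and 79 of 100 changes of 1 (log2) were called, with 7 false calls. Far fewer probes were changed there than the 2239 called in the HEK001 data, so these shares need not hold for the data. No slide block was fitted, since the headers used name no slide.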

Additional observations from a re-analysis of the deposited data

Results flagged for a closer look

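The effect of the NCSTN hairpin differed between the lines, by the limma interaction test over all kept probes, for 13 probes. Each value here is the log2 difference in HEK293 minus that in HEK001. With the probe detected on some or all HEK293 arrays, the values were -1.54 for IFIH1 (SE 0.234), -1.14 for IRF9 (SE 0.145), -1.41 for OAS3 (SE 0.321) and -1.004 for OAS1 probe 1 (SE 0.216). For IFIH1 and IRF9 the hairpin effect was called in both lines with opposite signs.

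For the other 9 probes no HEK293 array gave a detected value, so the test sets a change in HEK001 against levels under the detection limit. The values were -0.80 for RIGI, -0.92 for DHX58, -1.53 for DDX60, -1.37 and -1.38 for OAS1 probes 2 and 3, and -0.75, -0.98, -1.10 and -0.58 for OAS2 probes 1 to 4. No group holds enough arrays to test a single array as standing apart.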

How the results depend on the processing

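Of the member probes and pathway genes followed through the other settings, no called difference reversed. IFIH1 and IRF9 kept their calls in both lines under every setting run and without any single array. The number of all kept probes called in HEK001 was 2239 and ranged from 1388 (without control replicate 3) to 2346 when single arrays were left out, with 1473 without control replicate 2. With the authors' log2 values, 8 rather than 14 member probes were called in HEK001 and 8 rather than 13 in the interaction, and the cause was not tested. With 1 probe per gene there are 10 members instead of 16 probes, of which 9 were called in HEK001, 8 in the interaction and 9 between control cells, and 8046 rather than 12332 probes were called between control cells because fewer were tested. Leaving out single arrays gave 12 to 15 member probes in HEK001, 2 to 3 in HEK293, 11 to 13 in the interaction and 14 to 16 between control cells. The labels give same-numbered arrays only a number in common, and their deviations correlated at -0.04 to 0.07. Differently numbered arrays correlated at -0.08 to 0.11, so these values cannot settle whether the number pairs arrays. With the replicate number as a block, 1578 probes were called in HEK001, 3211 in HEK293 and 2810 in the interaction, and 14, 2 and 13 member probes. The block could not be estimated between lines. Under these settings and omissions, 106 calls of single probes were lost and 9 gained, against 1492 that stayed on their side of the threshold. Signals near the detection limit bound RIGI, DHX58 and OAS2 probe 3 in HEK001 and most members in HEK293.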
